A study of Mus musculus with 29 samples.

Results

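The genes described here are 10 of the 50233 genes listed in the count tables of the series, namely Prm1, Gm16565, Cd247, Aass, Fbxo2, Ccdc150, 1500015O10Rik, Ptx3, Shox2 and Skor1. They were selected on their counts in earlier results of these data, as near silent in control and wild-type (WT) cortex, or as strongly raised, in both experiments on cortex without BAF complexes. The comparison of mutant with control libraries chose the genes, so its values are given as a description and without a test. H3K27me3 peaks, neighbouring genes and gene lists of their pathways were not used for that choice and were tested. The response to a Wnt inhibitor was tested as well, but shares its vehicle and WT libraries with the choice.

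All samples came from the pallium, the dorsal forebrain that forms the cortex, of C57BL/6J mice at E17.5. The mutants (dcKO) lacked BAF155 and BAF170, encoded by Smarcc1 and Smarcc2, through hGFAP-Cre, which acts in late cortical progenitors and their progeny, so that cells of other origin can keep both genes. The first RNA-seq experiment held 4 untreated libraries lettered C and 3 lettered M, and the second held 4 WT libraries with vehicle, 4 dcKO libraries with vehicle and 4 dcKO libraries with the Wnt inhibitor ICG-001, given to the pregnant dams. H3K27me3 ChIP-seq was made for 4 samples lettered C and 4 lettered K. The deposited genotype reads dcKO for C, M and K alike, so C was read as control from the letters in the study's tables. Per the study's methods, controls carried 1 floxed and 1 intact allele of each gene together with Cre, so by that account the C libraries were not wild type. Mean Smarcc1 was 257 CPM in C and 266 CPM in WT vehicle, in separately scaled experiments. Mean Smarcc2 was 681 CPM in C and 730.5 CPM in WT vehicle. The levels in C were thus close to those of WT vehicle, and the genotype of C was not tested. The untreated and ChIP samples are described in the study's methods as littermate embryos. The labels do not say whether the libraries of the inhibitor experiment came from separate animals, so their p-values measure the spread between these libraries only.

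BAF (mSWI/SNF) complexes move nucleosomes with the energy of ATP and open or close promoters and enhancers, and BAF155 and BAF170 are the scaffold on which the other subunits are held. H3K27me3 is the mark that Polycomb complexes place on genes kept silent during development, many of them transcription factors of other tissues. Wnt signalling brings β-catenin to TCF/LEF factors on DNA, and ICG-001 blocks the contact of β-catenin with the coactivator CBP.

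The genes are known from different tissues and pathways. Shox2 encodes a homeodomain factor of limb, heart pacemaker and thalamic neurons, and Skor1 a corepressor of dorsal spinal and hindbrain neurons. Prm1 encodes protamine, the protein that packs DNA in sperm. Cd247 encodes the zeta chain of the T cell receptor, and Gm16565 is a noncoding gene that overlaps its first exon on the same strand. Ptx3 encodes a secreted pentraxin of the extracellular matrix and innate immunity, and 1500015O10Rik, also called Ecrg4, a secreted peptide precursor known from choroid plexus. Aass encodes the enzyme that opens lysine breakdown, Fbxo2 the glycoprotein-binding subunit of a ubiquitin ligase, and Ccdc150 a coiled-coil protein.

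By the GENCODE annotation of GRCm38 (mm10) the genes lie on 6 chromosomes. On chromosome 1, Gm16565 (chr1:165781075-165789367) overlaps the start of Cd247 (chr1:165788681-165877277), and 1500015O10Rik (chr1:43730602-43742578) and Ccdc150 (chr1:54250683-54368727) lie apart, all on the plus strand. On chromosome 3, Ptx3 (chr3:66219910-66225805, plus strand) and Shox2 (chr3:66971727-66981771, minus strand) lie near each other. Fbxo2 (chr4:148160621-148166424) is on the plus strand, and Aass (chr6:23072173-23132986), Skor1 (chr9:63138170-63148961) and Prm1 (chr16:10796326-10805839) are on the minus strand.

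RefSeq promoter sequences of build GRCm38.p6 were available for 8 of the 10 genes, and 4 are shown. The first 3 belong to the H3K27me3 results below, and that of Aass is shown for its TCF/LEF letters. The first 3 are printed on the minus strand, the coding strand of each gene, with CpG dinucleotides in capitals. Shox2 (chr3:66981772-66982021) and Skor1 (chr9:63148962-63149211) lie under H3K27me3 peaks in all 8 ChIP libraries. Prm1 (chr16:10796887-10797073) lies under a peak in some libraries, and is printed only as far as the first exon of any annotated transcript.
Shox2: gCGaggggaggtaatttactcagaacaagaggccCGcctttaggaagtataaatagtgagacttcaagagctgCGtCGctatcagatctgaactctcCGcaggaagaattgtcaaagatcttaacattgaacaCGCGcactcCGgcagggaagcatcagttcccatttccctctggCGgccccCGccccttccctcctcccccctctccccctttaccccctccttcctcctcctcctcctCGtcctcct
Skor1: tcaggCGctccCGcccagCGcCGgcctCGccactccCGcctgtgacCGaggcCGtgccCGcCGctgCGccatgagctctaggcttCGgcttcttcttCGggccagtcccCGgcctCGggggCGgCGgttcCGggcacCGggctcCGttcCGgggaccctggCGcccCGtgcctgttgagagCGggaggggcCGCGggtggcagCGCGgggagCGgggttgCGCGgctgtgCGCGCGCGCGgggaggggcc
Prm1: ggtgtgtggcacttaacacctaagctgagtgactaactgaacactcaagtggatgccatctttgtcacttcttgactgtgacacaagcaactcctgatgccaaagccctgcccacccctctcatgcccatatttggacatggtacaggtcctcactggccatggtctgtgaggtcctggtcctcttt
The Shox2 window holds 11 CpG, a number that 35.6% of the 32851 RefSeq promoters of 250 bases reach. The Skor1 window shown holds 36, which 2.58% reach. RefSeq also lists promoters of Skor1 with 14 and 12 CpG, which are not shown. The full window of Prm1 holds 0, against a median of 6. The promoters of the other 5 genes hold between 3 (Cd247) and 19 (Fbxo2) CpG. TCF/LEF letters (CTTTGNN with A or T at each N, on either strand) were found in 1 of the 10 promoters of the 8 genes, that of Aass. Of all promoters 14.8% hold a match, so the number among these 10 is near that share. The Aass promoter (chr6:23132987-23133236, minus strand) is shown with that match in capitals. It reads on the reverse strand of the gene.
Aass: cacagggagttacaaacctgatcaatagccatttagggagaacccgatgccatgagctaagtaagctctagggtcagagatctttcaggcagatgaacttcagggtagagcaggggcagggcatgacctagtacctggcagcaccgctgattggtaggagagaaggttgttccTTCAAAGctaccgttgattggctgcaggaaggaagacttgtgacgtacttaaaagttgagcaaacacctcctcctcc
A match of letters is a description of the sequence and not a bound site.

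Some libraries from the mutant groups stood apart, and the levels, ratios and tests that turn on them are given with and without them. The deleted genes served as the check of the labels. Smarcc1 was at 247 to 269 CPM (read counts scaled to library size with TMM) in the 4 C libraries and at 244, 266, 299 and 256 CPM in WT vehicle. It was at 128 and 135 CPM in M replicates 3 and 4, but at 245 CPM in M replicate 2. In dcKO vehicle it was at 136, 242, 133 and 138 CPM in replicates 1 to 4, and with the inhibitor at 214, 252, 140 and 173 CPM. Smarcc2 gave a similar split, with 669 CPM in M replicate 2, 691 CPM in vehicle replicate 2, and 644 and 694 CPM in inhibitor replicates 1 and 2. The low libraries of M and dcKO vehicle were at 398 to 439 CPM. Inhibitor replicate 3 was at 415 CPM, and replicate 4, at 585 CPM, lay between the high and low libraries. Thus M replicate 2, vehicle replicate 2 and inhibitor replicate 2 held control levels of both targets and went against their label, and inhibitor replicate 1 lay between them and the rest for Smarcc1. Libraries of the same number also resembled each other across the experiments. The deviations from the group mean correlated at 0.57 to 0.86 for the 3 same-numbered pairs of M and dcKO vehicle, and at -0.74 to 0.47 for the 9 other pairs. For C and WT vehicle the values were 0.14 to 0.54 (4 pairs) and -0.39 to 0.29 (12 pairs). Xist, an RNA of female cells, was at 0.882, 2075, 2340 and 10.7 CPM in C and 0.511, 1896, 2662 and 3.1 CPM in WT vehicle. It was at 2269, 4.09 and 2333 CPM in M replicates 2 to 4, and at 672, 1795, 3.57 and 1980 CPM in dcKO vehicle. The experiments were therefore not treated as independent of each other. With the inhibitor Xist was at 2.03, 2.29, 2.86 and 1970 CPM. The mix of sexes thus differed between vehicle and inhibitor, and its part was not tested. Library totals, in units of 1e6 counts, were 11.9 to 28.4 in the untreated and 12.5 to 26.6 in the treated experiment.

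Shox2 was the gene closest to an on and off pattern. It had 0 counts in each of the 4 C libraries and 1.76, 11.1 and 8.31 CPM in M replicates 2, 3 and 4. In WT vehicle it was at 0, 0.0511, 0 and 0.0774 CPM, which are 3 reads in all, and in dcKO vehicle at 8.61, 1.69, 9.53 and 7.87 CPM. Every M and dcKO vehicle library was above every control, and the replicate with control levels of Smarcc1 was the lowest of its group in both experiments. With M replicate 2 and vehicle replicate 2 left out, the means were 9.68 ± 1.94 CPM (SD, n = 2) and 8.67 ± 0.833 CPM (SD, n = 3). Set against a floor of 3 counts over the 4 C libraries, Shox2 was at least 227-fold higher in M. Against WT vehicle the ratio was 178 (exact 95% interval 60.6 to 865, counting error only). At this depth 0 counts do not show that the gene is silent.

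Prm1 had the largest fitted log2 fold change after Shox2. It was at 0.0420, 0.177, 0.0711 and 0.0452 CPM in C (1 to 4 reads per library) and at 2.60, 29.1 and 26.2 CPM in M replicates 2 to 4. WT vehicle gave 0.153, 0.153, 0.331 and 0.0774 CPM, and dcKO vehicle 28.8, 2.49, 28.1 and 30.8 CPM. The libraries with low Smarcc1 sat within a narrow band near 30 CPM, while replicate 2 of each group was far below them but above all controls. The ratio of group means was 230 for M over C and 126 for dcKO vehicle over WT vehicle. Prm1 counts overlap an antisense gene (Gm46563), and a gene count does not tell a transcript of the native Prm1 locus from one of a transgene that carries Prm1 sequence, which was not tested.

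Cd247 and Gm16565, which share sequence, moved alike and cannot be taken as separate measurements where their exons overlap. Cd247 was at 0.221 to 0.361 CPM in C and at 1.17, 4.16 and 4.60 CPM in M, and at 0.204 to 0.578 CPM in WT vehicle against 4.15, 1.20, 4.31 and 4.10 CPM in dcKO vehicle. Gm16565 was at 0.722 to 0.797 CPM in C and 3.10, 5.30 and 5.41 CPM in M, and at 0.503 to 0.971 CPM in WT vehicle against 6.44, 2.05, 5.09 and 4.89 CPM in dcKO vehicle. Neither gene overlapped its controls in either experiment. Group means of Cd247 were 10.4 and 8.5 times those of the controls.

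Fbxo2 and the secreted products were already present in the controls. Fbxo2 was at 1.78 to 2.48 CPM in C and at 4.78, 27.3 and 32.9 CPM in M, and at 1.65 to 3.73 CPM in WT vehicle against 35.9, 8.54, 34.2 and 41.3 CPM in dcKO vehicle. Ptx3 was at 17.9 to 21.9 CPM in C and at 39.4, 63.2 and 65.1 CPM in M, and at 18.4 to 21.6 CPM in WT vehicle against 60.1, 35.9, 61.8 and 66 CPM in dcKO vehicle. 1500015O10Rik was at 1.64 to 3.98 CPM in C and 6.63, 11.8 and 21.8 CPM in M, and at 2.56 to 3.56 CPM in WT vehicle against 15.3, 7.52, 11.9 and 21 CPM in dcKO vehicle. None of these 3 genes was near silent in controls, and their groups did not overlap in either experiment. The ratio of means was smallest for Ptx3, at 2.81 and 2.79 in the 2 experiments.

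Aass, Skor1 and Ccdc150 were the genes of low count. Aass was at 0.336 to 0.569 CPM in C and 1.43, 2.35 and 1.90 CPM in M, and at 0.256 to 0.578 CPM in WT vehicle against 2.07, 0.934, 2.13 and 1.82 CPM in dcKO vehicle. Skor1 was at 0.168, 0.266, 0.178 and 0.226 CPM in C and at 0.168, 1.44 and 1.53 CPM in M, so that M replicate 2 lay within the controls. In dcKO vehicle Skor1 was at 1.94, 0.400, 1.70 and 2.28 CPM, above the highest WT value of 0.310 CPM. Ccdc150 rested on 3 to 17 reads per library in the C, M and dcKO groups. It was at 0.142 to 0.310 CPM in C and 0.252, 0.492 and 0.646 CPM in M, which overlap, and at 0.0511 to 0.153 CPM in WT vehicle against 0.373 to 0.740 CPM in dcKO vehicle, which do not.

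**Figure D1:**
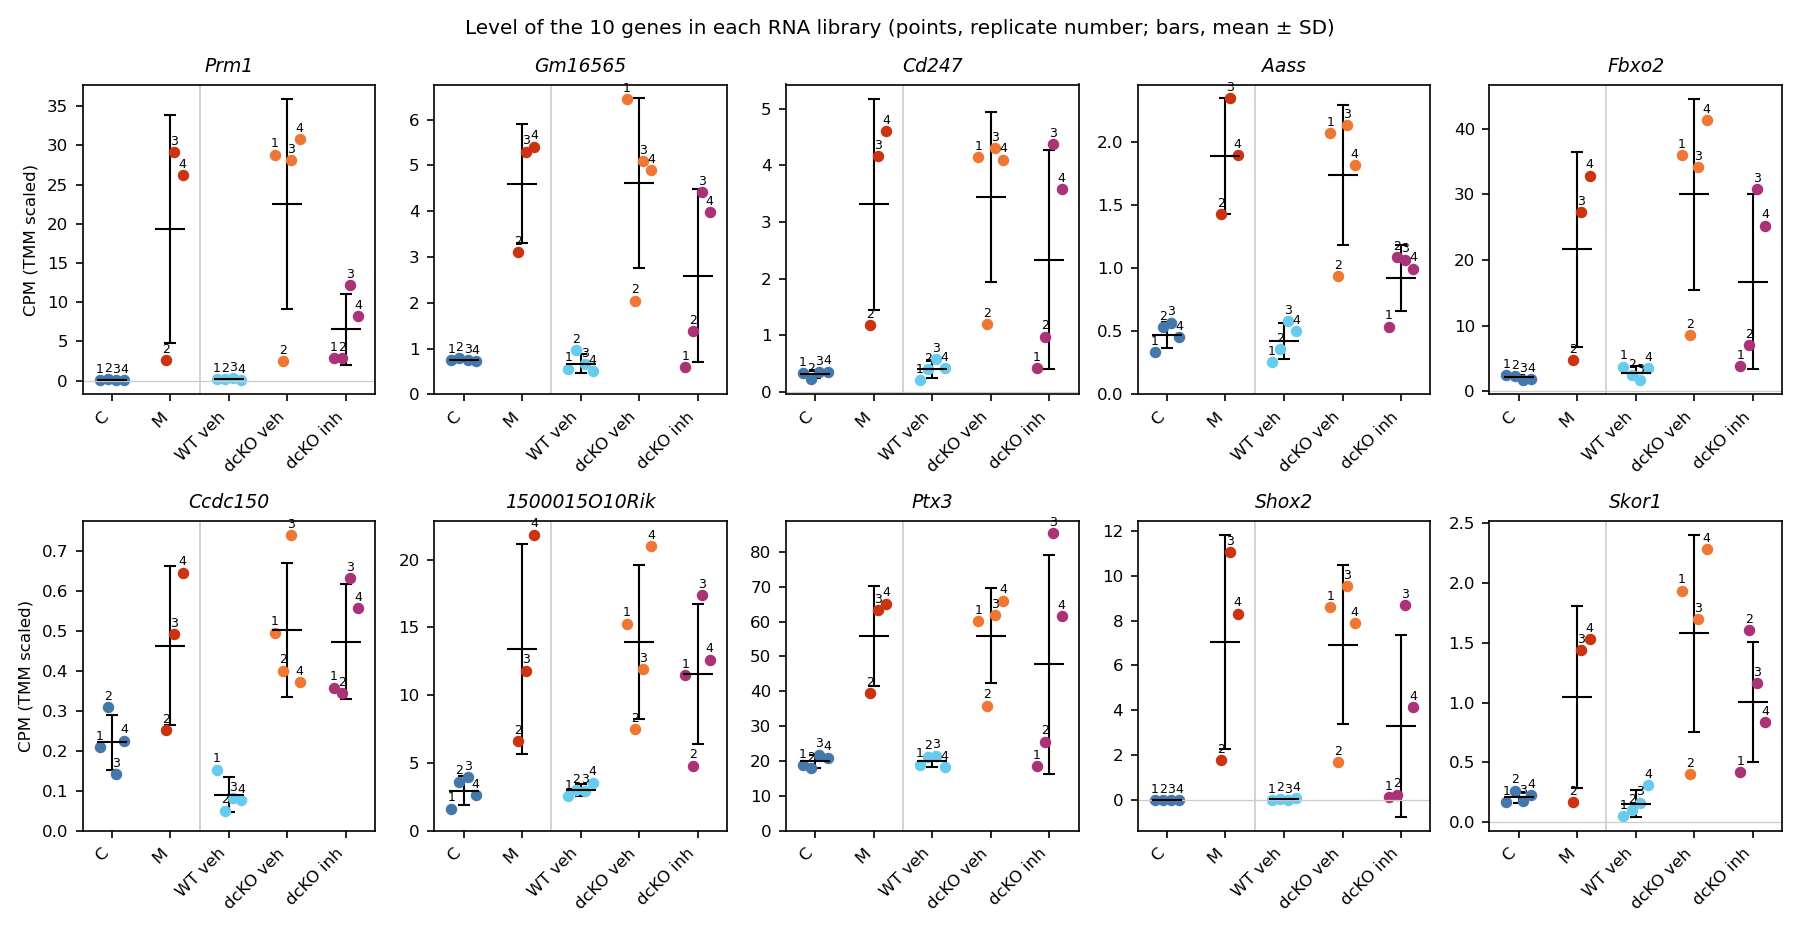
Level of each of the 10 genes in CPM (linear axis from 0, a separate scale per gene) in every RNA library of the untreated experiment (C, M) and the inhibitor experiment (WT vehicle, dcKO vehicle, dcKO inhibitor). Points are libraries with their replicate number, and black bars are the mean and SD. M replicate 2 and dcKO vehicle replicate 2 are the lowest of their groups for all genes except Ccdc150, where vehicle replicate 4 is lower.

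Over the whole list, M and C did not overlap for 8 of the 10 genes, all higher in M. Skor1 and Ccdc150 overlapped, and these did not pass the filter on low counts in that experiment. Of all 15770 genes tested there, 6.96% were higher without overlap. In the second experiment all 10 genes were higher in dcKO vehicle without overlap, against 3.08% of 16372 genes. These shares describe how the genes were chosen. Fitted log2 fold changes (edgeR, no test) were between 1.49 ± 0.16 (SE, Ptx3) and 10.38 ± 1.5 (Shox2) in the untreated and between 1.48 ± 0.38 (Ptx3) and 7.28 ± 1.42 (Shox2) in the treated experiment. The value of Shox2 against C, which held 0 counts, depends on the prior count of the fit and is no bound. The description as switched on fitted Shox2 and Prm1 best. Prm1, Shox2, Ccdc150 and Skor1 stayed at or below 0.331 CPM in all 8 control libraries, but Skor1 and Ccdc150 did not exceed 2.28 CPM in any library. Fbxo2, 1500015O10Rik and Ptx3 were above 1.6 CPM in every control library, so these were raised from a level already present.

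M replicate 2 and vehicle replicate 2, which went against their label, were then left out. Prm1 was at 27.7 ± 2.08 CPM (SD, n = 2) in M and at 29.3 ± 1.38 CPM (SD, n = 3) in dcKO vehicle. Cd247 was at 4.38 ± 0.310 CPM and 4.18 ± 0.111 CPM, and Ptx3 at 64.2 ± 1.34 CPM and 62.6 ± 3.05 CPM. Skor1 and Ccdc150 no longer overlapped the C libraries, with lowest values of 1.44 and 0.492 CPM against highest C values of 0.266 and 0.310 CPM. The SD did not shrink for every gene, and that of Ccdc150 in dcKO vehicle went from 0.167 to 0.187 CPM. The ratio of means rose to 330 and 164 for Prm1, to 13.8 and 10.4 for Cd247, and to 3.22 and 3.12 for Ptx3 in the untreated and the treated experiment. Shox2 was then at least 312-fold higher in M than in C by the same floor, and its ratio against WT vehicle was 223 (exact 95% interval 76 to 1086, counting error only).

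The difference between the experiments is made of the 2 comparisons that chose the genes, so it is given as a description, without a test, and the choice favoured small differences. Estimates, treated minus untreated, ran from -3.0 ± 3.0 (SE, Shox2) to 1.25 ± 0.60 (Ccdc150) on the log2 scale in a fit that takes all libraries as separate. That of Prm1 was -0.68 ± 2.1 and that of Ptx3 -0.01 ± 0.26. With same-numbered libraries of the 2 experiments taken as 1 animal, a fit chosen after seeing the data, the estimates were -2.81 ± 0.93 for Shox2, -0.94 ± 0.52 for Prm1, 1.37 ± 0.66 for Ccdc150 and -0.05 ± 0.12 for Ptx3. The error of Shox2 and Prm1 was thus much smaller in that fit. The estimate of Shox2 depends on the prior count in both fits.

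**Figure D2:**
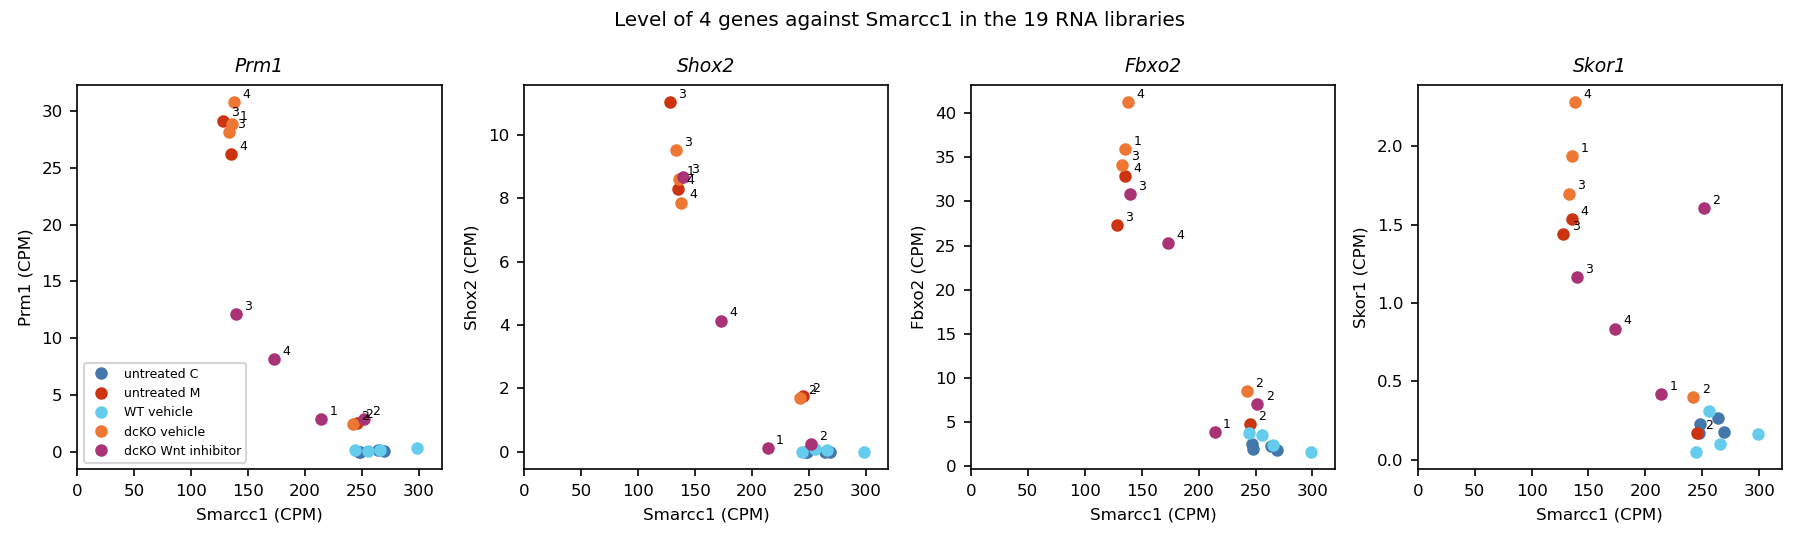
CPM of Prm1, Shox2, Fbxo2 and Skor1 (vertical axes) against CPM of Smarcc1 (horizontal axis) in the 19 RNA libraries, coloured by group, with replicate numbers for libraries labelled dcKO or lettered M. Libraries with Smarcc1 between 128 and 140 CPM hold high levels of Shox2 and Fbxo2, and of Prm1 except inhibitor replicate 3 at 12.1 CPM. For Prm1, Shox2 and Fbxo2, those labelled dcKO or lettered M at 242 to 252 CPM lie below these, though above every control. Skor1 in inhibitor replicate 2 is at 1.61 CPM with Smarcc1 at 252 CPM.

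Levels of the genes were set beside Smarcc1 library by library, as the plot against Smarcc1 shows. The libraries fall into separate clusters, so no correlation over all of them is given. The 3 libraries of number 2 with Smarcc1 at 242 to 252 CPM held 2.49 to 2.87 CPM of Prm1, a level above the highest control (0.331 CPM). Shox2 was at 1.76 and 1.69 CPM in M and vehicle replicate 2 but at 0.229 CPM in inhibitor replicate 2. Inhibitor replicate 3, with Smarcc1 at 140 CPM, held Shox2 and Fbxo2 at levels of the high cluster (8.69 and 30.8 CPM) but Prm1 at 12.1 CPM, below the 26.2 to 30.8 CPM of the other libraries with low Smarcc1. Inhibitor replicate 4, with Smarcc1 at 173 CPM, was between the clusters for Shox2 (4.14 CPM) and close to the high cluster for Fbxo2 (25.2 CPM). Because these are bulk samples, fewer cells without BAF complexes and less RNA of a gene per cell cannot be told apart.

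The Wnt inhibitor was compared with vehicle in dcKO cortex to ask whether the levels return. All 10 genes had a lower estimate with the inhibitor, but none was called (edgeR, adjusted p = 0.217 to 0.958, 2 at an unadjusted p under 0.05, 0 with DESeq2). Among all genes 0.0122% were called lower, and 2595 of 16372 were at an unadjusted p under 0.05 in either direction (edgeR). The vehicle libraries are shared with the comparison that chose the genes, so the direction is not independent of that choice. The groups overlapped for all 10 genes, while 4.03% of all genes were lower without overlap.

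Prm1 with the inhibitor was at 2.87, 2.87, 12.1 and 8.20 CPM in replicates 1 to 4, against 28.8, 2.49, 28.1 and 30.8 CPM with vehicle. Apart from vehicle replicate 2, all vehicle libraries were above all inhibitor libraries. The log2 fold change was -1.78 ± 0.60 (SE, edgeR adjusted p = 0.217). It was -2.15 (adjusted p = 0.0289) without vehicle replicate 2, where 0.454% of all genes were called lower. With vehicle replicate 2 and inhibitor replicates 1 and 2 left out it was -1.53 ± 0.21 (adjusted p = 0.0249), where 0.72% were. Prm1 was the single gene of the 10 called lower in any setting run, and it was called only in these 2. Leaving out the 3 libraries was chosen after seeing the data. It still keeps inhibitor replicate 4, with Smarcc1 at 173 CPM and Smarcc2 at 585 CPM.

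Shox2 with the inhibitor was at 0.120, 0.229, 8.69 and 4.14 CPM. Replicates 1 and 2, which hold high Smarcc1, were near the WT level, and replicate 3 was within the vehicle range. The log2 fold change was -1.04 ± 0.79 (SE, edgeR adjusted p = 0.540), and it was -0.44 ± 0.30 (adjusted p = 0.486) without the 3 libraries. Aass was at 0.538, 1.09, 1.07 and 0.995 CPM, with a log2 fold change of -0.90 ± 0.31 (adjusted p = 0.221) and of -0.96 ± 0.27 (adjusted p = 0.113) without the 3 libraries. Aass and Prm1 are the 2 genes at an unadjusted p under 0.05 in the fit of all libraries.

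Fbxo2, Cd247, Gm16565 and Ptx3 varied widely between inhibitor libraries. Fbxo2 was at 3.82, 7.00, 30.8 and 25.2 CPM with the inhibitor, and Ptx3 at 18.5, 25.6, 85.3 and 61.5 CPM. Cd247 was at 0.418, 0.975, 4.37 and 3.58 CPM, and Gm16565 at 0.597, 1.38, 4.42 and 3.98 CPM. Replicates 3 and 4, with lower Smarcc1, were the 2 highest for each of these 4 genes, and replicate 1 was the lowest. Estimates were -0.83 ± 0.56 (SE, Fbxo2), -0.52 ± 0.54 (Cd247), -0.80 ± 0.47 (Gm16565) and -0.23 ± 0.37 (Ptx3), and without the 3 libraries they were -0.41, -0.07, -0.38 and 0.23 on the log2 scale. The sign of Ptx3 thus turned, without a call.

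Skor1, 1500015O10Rik and Ccdc150 did not follow that split. Skor1 was at 0.418, 1.61, 1.17 and 0.836 CPM with the inhibitor, highest in replicate 2. The summed level of the 9 dorsal hindbrain and spinal interneuron genes, a cell type Skor1 is known from, was 16, 42.3, 30.8 and 39.4 CPM in the same libraries, also highest in replicate 2, against 1.07 to 14.8 CPM in dcKO vehicle and 3.3 to 11.2 CPM in WT vehicle. None of the 9 genes was at 0 in all libraries, but only 1 averaged 1 CPM or more in this experiment. Of the 9, 2 passed the filter on low counts, and 0 were called with the inhibitor against vehicle. Most of the sum was Isl1 (14.7 CPM on average over the 12 libraries), a factor that striatal neurons also express, and the part of these cells in the result was not tested. 1500015O10Rik was at 11.5, 4.82, 17.4 and 12.6 CPM, with replicate 1 within the vehicle range and its Smarcc1 at 214 CPM. Ccdc150 was at 0.344 to 0.631 CPM. Choroid plexus markers were high in 3 of the 4 inhibitor libraries. Transthyretin (Ttr), the main secreted protein of choroid plexus, was at 802, 146, 447 and 4.02 CPM in inhibitor replicates 1 to 4 and at 3.87 to 5.79 CPM in dcKO vehicle, and the summed level of the 14 listed markers was 28.9 to 896 CPM against 20.2 to 32.1 CPM. Since Ecrg4 is known from choroid plexus, these values stand beside those of 1500015O10Rik, and their part in the result was not tested.

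**Figure D3:**
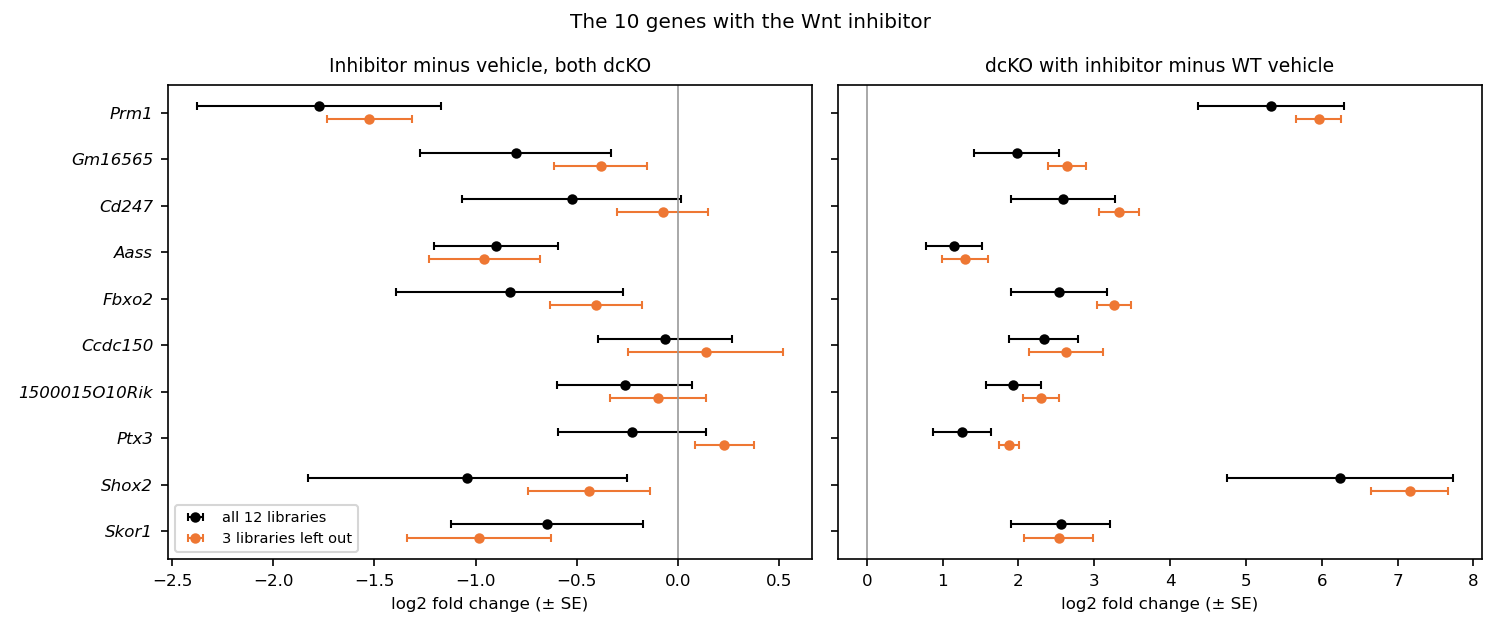
Log2 fold change ± SE (edgeR) of the 10 genes for dcKO with inhibitor minus dcKO with vehicle (left) and minus WT with vehicle (right). Black points use all 12 libraries, and orange points leave out vehicle replicate 2 and inhibitor replicates 1 and 2. On the left Prm1 stays at -1.78 and -1.53 while Ptx3 and Ccdc150 cross 0, and on the right all values are above 0.

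The share of the rise over WT that was left with the inhibitor was computed from group means as a description. It was 28.3% for Prm1, 37.9% for Aass, 47.3% for Shox2, 48.7% for Gm16565, 51.1% for Fbxo2, 59.7% for Skor1, 63.7% for Cd247, 77.1% for Ptx3, 78.4% for 1500015O10Rik and 92.9% for Ccdc150. Single libraries ran from 1.27% to 126% for Shox2 and from -4.32% to 182% for Ptx3. Without vehicle replicate 2 and inhibitor replicates 1 and 2 the share was 34.4% for Prm1, 38.4% for Aass, 46.5% for Skor1, 73.4% for Gm16565 and for Fbxo2, 73.9% for Shox2, 91.8% for 1500015O10Rik, 94.5% for Cd247, 113% for Ccdc150 and 125% for Ptx3. The share thus rose for all genes but Skor1, and stayed lowest for Prm1 and Aass. For Prm1 single libraries ran from 12% to 53.4%, so no inhibitor library kept the full rise.

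Inhibitor libraries were also set against WT vehicle, to ask whether the genes had reached WT level. All 10 had a higher estimate in dcKO with the inhibitor, with log2 fold changes from 1.15 ± 0.37 (SE, Aass) to 6.24 ± 1.49 (Shox2). None was called with edgeR (adjusted p = 0.0526 to 0.136, all 10 at an unadjusted p under 0.05), where 0.0611% of all genes were called higher. Of all 16372 genes, 3236 were at an unadjusted p under 0.05 in either direction. A replicate block in the edgeR fit gave 3 higher calls (Prm1, 1500015O10Rik and Ccdc150, adjusted p = 0.0345 to 0.0447), against 0.391% of all genes. DESeq2 called 8 of the 10 higher, against 2.01% of all genes. Without inhibitor replicate 2 edgeR called 8 (3.39% of all genes), and without the 3 libraries that stood apart it called all 10 (2.66%). The groups did not overlap for 6 of 10 genes (Prm1, Fbxo2, Ccdc150, 1500015O10Rik, Shox2, Skor1), against 3.48% of all genes. The WT libraries are shared with the comparison that chose the genes as low there. Neither the direction nor the excess over the share of all genes is therefore independent of that choice.

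H3K27me3 was measured in C and K cortex, and the choice of genes did not use it. The deposited broad peaks, called by the authors in each library against the pooled input of the same letter, give a fold enrichment over input. Shox2 lay in a single region (chr3:66960804-66985285) that spans the gene and held a peak in all 8 libraries. Its highest fold enrichment was 13.2, 6.80, 5.19 and 5.61 in C and 15.4, 5.56, 5.88 and 13.1 in K, which overlap. Skor1 lay in a region (chr9:63133461-63159908) with a peak in all 8 libraries, at 11.6, 6.81, 6.82 and 6.2 in C and 9.78, 5.39, 6.63 and 12.2 in K. Only 2.48% of 21695 protein-coding genes had a peak within 2000 bp of the transcription start site (TSS) in all 8 libraries, and 36.8% in at least 1. Shox2 and Skor1 are the 2 transcription regulators of the list, and the promoters printed for them above hold 11 and 36 CpG.

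No difference between K and C was called at either gene. The log2 difference, K minus C, was 0.34 ± 0.55 (SE) at Shox2 and 0.09 ± 0.56 at Skor1 (limma, adjusted p = 1 for each). Shox2 RNA was at least 227-fold higher in M than in C, while the gene held a peak in every C and K library. RNA and ChIP came from different samples. Both are bulk samples, so cells with the mark and cells with the RNA cannot be told apart.

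Prm1 had a region (chr16:10795664-10797763) over its RefSeq promoter, whose start lies 9016 bp from that of the annotated gene. Fold enrichment there was 1 (no peak), 3.33, 1 and 3.39 in C and 6.32, 1, 5.95 and 11.3 in K. The 3 K libraries with a peak were all above the 2 C libraries with a peak, and 3 libraries had none. The log2 difference of 1.31 ± 0.90 (SE) was the largest of the list in size and had the smallest p (limma, unadjusted p = 0.145, adjusted p = 1). The unadjusted p was 0.00597 with pileup, 0.0258 with peaks of q under 0.01 and 0.0144 without K replicate 2, and no setting gave an adjusted call. A separate peak near the annotated gene start was found in C replicate 1 alone, at 4.54.

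Fbxo2 lay in a region (chr4:148159616-148167584) with a peak in all 8 libraries, at 4.57 to 9.04 in C and 4.35 to 7.66 in K. The 9.04 is from C replicate 3, which had 0 peaks over the gene body or within 2000 bp of its TSS. Within 2000 bp of that TSS, 3 C and 2 K libraries held a peak. Cd247 had 4 regions in its introns and none at its start, with log2 differences of -0.45 to 0.72. At the start of Aass (chr6:23132122-23133481) 2 libraries of each letter had a peak, at 3.65 and 3.41 in C and 3.42 and 4.57 in K. At Ptx3 (chr3:66219662-66222229) 2 C libraries and 1 K library had one. Gm16565 and 1500015O10Rik had no peak in any library, and Ccdc150 had 1, in a C library. In all, 10 regions lay at 7 of the genes and none was called (limma, 0 at an unadjusted p under 0.05), as was 0% of the 22220 regions, 49 of which had an unadjusted p under 0.05.

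Depth differed between the ChIP libraries. The share of tags kept after removal of duplicates was 13.7%, 61.5%, 12.3% and 62.2% in C replicates 1 to 4 and 16%, 18.0%, 66.6% and 32.8% in K. The 4 libraries with a peak at Aass are those 4 that kept over 30% of their tags. At Ptx3, in contrast, C replicate 1 with 13.7% kept held a peak, and C replicate 4 and K replicate 3, which kept most, held none. The part of depth in these results was not tested. Peaks of each letter were called against the input of that letter, so a difference between the inputs and a difference between the marks cannot be told apart.

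**Figure D4:**
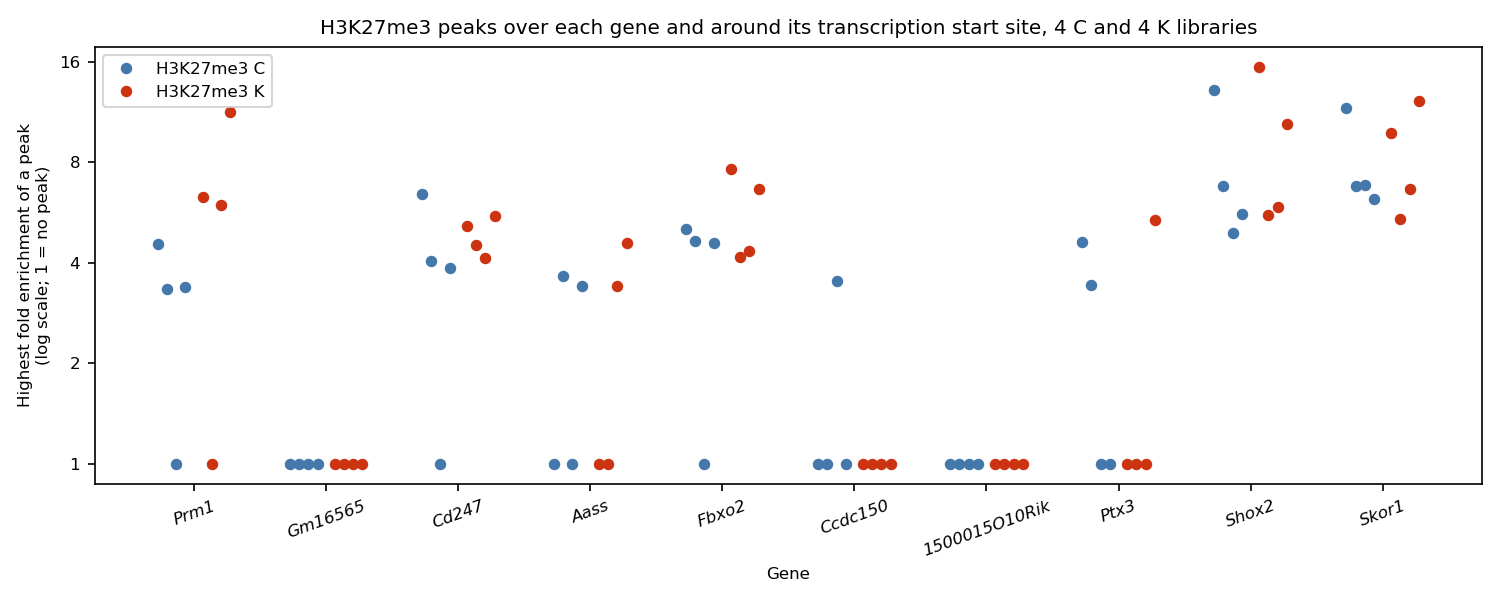
Highest H3K27me3 fold enrichment of a peak over each gene body or within 2000 bp of its annotated TSS (log axis, 1 means no peak, and merged regions in the text may reach beyond this window) in 4 C (blue) and 4 K (red) libraries, 1 point per library. Shox2 and Skor1 hold a peak in all 8 libraries with overlapping groups, Prm1 reaches 11.3 in K, and Gm16565 and 1500015O10Rik have none.

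Genes whose body lies within 500 kb of a TSS of the list were examined to see whether their levels moved along with it. There were 227 such genes, of which 85 were tested in the untreated and 91 in the treated experiment, with median log2 fold changes of 0.02 and 0.01. None was called with edgeR in either (17 and 10 at an unadjusted p under 0.05, 7 and 2 with DESeq2), where 0.00634% and 0.00611% of all genes were. Of all 15770 and 16372 genes tested, edgeR gave 2531 and 1549 at an unadjusted p under 0.05. DESeq2 called 257 higher and 298 lower of all genes in the untreated, and 85 and 35 in the treated experiment. Without M replicate 2, 16 neighbours were called (11 higher, 5 lower, of 87), against 12.4% of all genes (5.57% higher, 6.88% lower). Without vehicle replicate 2, 6 were called (4 higher, 2 lower, of 92), against 3.4% (1.34% higher, 2.06% lower).

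Neighbours were called in both directions. Fbxo44, an F-box gene beside Fbxo2 whose TSS is the closest of those tested, was not called, with log2 fold changes of 0.01 ± 0.08 and -0.0012 ± 0.12 (SE) in the untreated and treated experiment. Rsrc1, a splicing factor gene whose TSS lies 0.381 kb from that of Shox2 on the other strand, was at 43.6 to 52.4 CPM in C and 53.7, 68.5 and 65.6 CPM in M. It rose by 0.47 ± 0.08 (SE, edgeR adjusted p = 0.00327) on the log2 scale without M replicate 2, a small change beside that of Shox2. In the second experiment it was at 32.6 to 54.6 CPM in WT and 41.3 to 59.3 CPM in dcKO vehicle, which overlap, and was not called (0.30 ± 0.18, adjusted p = 0.668, and 0.40 with adjusted p = 0.366 without vehicle replicate 2). Veph1, in whose body Ptx3 lies on the opposite strand, had the opposite direction. It was at 21.4 to 26.4 CPM in C and 29.4, 9.99 and 10.3 CPM in M, with a log2 fold change of -1.22 ± 0.11 (adjusted p = 9.2e-05) without M replicate 2 and -1.13 ± 0.25 (adjusted p = 0.0260) without vehicle replicate 2. The kit does not mark strand, so reads of the 2 genes cannot be told apart where their exons overlap.

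Near Cd247, Creg1, a secreted lysosomal glycoprotein gene 24.9 kb from its TSS, was higher by 0.68 ± 0.12 and 0.61 ± 0.13 (SE, log2) without M and without vehicle replicate 2, respectively (edgeR adjusted p = 0.00576 and 0.0259). Ildr2, 465.5 kb away, was higher by 0.92 ± 0.13 and 0.99 ± 0.14. Near Fbxo2, Agtrap, a regulator of the angiotensin receptor, was higher by 1.14 ± 0.14 and 1.06 ± 0.22. Near Prm1, Emp2, a membrane protein gene 491.9 kb away, was lower, with log2 fold changes of -1.24 ± 0.16 and -1.27 ± 0.21. All were called in both fits. Smad3, a signal transducer of TGF-β near Skor1, was higher by 0.43 in both. With the inhibitor against vehicle, without vehicle replicate 2, Ildr2 (-0.91 ± 0.14) and Fezf1 (-1.36 ± 0.29), a forebrain factor near Aass, were called lower, as were 0.454% of all genes.

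Lists of 138 genes in 14 groups gave the pathways and cell types of the 10 genes. With all libraries none of the list genes was called in M against C (98 tested, 20 at an unadjusted p under 0.05, 6 with DESeq2), in dcKO vehicle against WT (105 tested, 15 and 3) or with the inhibitor against vehicle (105 tested, 28 and 11). The background of edgeR calls in the 3 comparisons was 0.00634%, 0.00611% and 0.055%. Of all 15770, 16372 and 16372 genes tested, edgeR gave 2531, 1549 and 2595 at an unadjusted p under 0.05. DESeq2 called 257 higher and 298 lower, 85 and 35, and 174 and 165 of all genes. Without M replicate 2, 15 were higher and 5 lower of 103 tested (background 12.4%), and without vehicle replicate 2, 3 were higher and 4 lower of 104 (background 3.4%).

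Other spermatid genes did not move with Prm1. Of 15 spermatid genes 6 were at 0 counts in all untreated and 4 in all treated libraries, and Prm2, Tnp1, Akap4 and Smcp, which act beside Prm1 in sperm, were at 0 in all 19 libraries. The summed level of the list was 12.8 to 14.9 CPM in C and 12.5 to 14.9 CPM in M, and 9.64 to 10.3 CPM in WT against 9.21 to 11.3 CPM in dcKO vehicle. The most abundant members, Gapdhs and Hspa1l, had log2 fold changes of -0.24 ± 0.29 and 0.13 ± 0.17 (SE) in the treated experiment. None of the 5 tested was called in these comparisons.

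The rest of the T cell receptor complex was near 0. Cd3e, Cd3d and Cd3g, which assemble with the Cd247 protein, reached at most 0.0711 CPM in any library, or 2 reads. Summed over 11 T cell genes the level was 7.57 to 9.03 CPM in C and 7.63 to 10.3 CPM in M, and most of it was Lck (6.06 CPM on average in the treated experiment), which neurons also express. None of 3 tested was called. The 10 microglia genes summed to 62.9 to 72.7 CPM in C and 52.8 to 81.2 CPM in M. Of these, Tyrobp (0.96 ± 0.22, SE, log2) and C1qb (0.45 ± 0.13) were called higher without M replicate 2 (edgeR, adjusted p = 0.0174 and 0.0483), and none was without vehicle replicate 2.

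No partner of Aass or Fbxo2 was called higher. In the list of lysine breakdown (10 genes, 9 or 10 tested) Crym, a ketimine reductase of that pathway that also binds thyroid hormone, was lower by log2 fold changes of -1.02 ± 0.09 and -0.97 ± 0.23 (SE) without M and without vehicle replicate 2 (edgeR adjusted p = 9.2e-05 and 0.0373), and no gene was called higher. None of the 7 F-box partners was called in those fits, with Skp1a at -0.05 ± 0.16 and Cul1 at -0.12 ± 0.11 in the treated experiment. Of the pentraxin and matrix genes, Nptx1, a neuronal pentraxin, was lower (-1.05 ± 0.09 and -1.08 ± 0.15, adjusted p = 9.2e-05 and 0.00430), opposite in direction to Ptx3.

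The lists tied to Shox2 and Skor1 differed in their calls. None of the 4 tested Shox2-associated genes (Tbx3, Isl1, Hcn4 and Runx2) was called in those fits. In the thalamus and diencephalon list without M replicate 2, 4 of 9 tested genes were higher and 1 lower (12.4% of all genes were called there), namely Gbx2 (2.75 ± 0.61, SE, log2), Olig3 (1.21 ± 0.28), Lhx9 (0.63 ± 0.09), Tcf7l2 (0.52 ± 0.13) and Lhx2 (-0.81 ± 0.12). Without vehicle replicate 2, Lhx2 alone was called of 10 tested, again lower (-0.89 ± 0.10), against 3.4% of all genes. Of the dorsal hindbrain and spinal list Ptf1a was called higher there and Isl2 without vehicle replicate 2, both at under 0.4 CPM on average. Of 7 radial glia genes 4 were higher and 1 lower without M replicate 2, with Hes5 at 0.71 ± 0.11 and Nes at -1.20 ± 0.10, and without vehicle replicate 2 only Nes was called (-1.12 ± 0.20).

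Among 12 feedback targets of Wnt signalling, Axin2, which every responding cell turns on, was at 27 to 33.6 CPM in C and 31.8, 47.5 and 40.6 CPM in M. It was higher by 0.54 ± 0.10 and 0.62 ± 0.16 (SE, log2) without M and without vehicle replicate 2 (edgeR adjusted p = 0.00607 and 0.0496). Without M replicate 2, Ccnd1 (0.60 ± 0.08) and Dkk1 (3.65 ± 0.60) were also higher and Rnf43 (-1.60 ± 0.30) was lower. With the inhibitor the summed level of the 12 genes was 166 to 201 CPM against 187 to 224 CPM with vehicle, and none was called. Axin2 was at 25.2, 32.4, 35.1 and 43.0 CPM with the inhibitor and at 47.9, 32.6, 46.7 and 46.0 CPM in dcKO vehicle. Prm1 was at 2.87, 2.87, 12.1 and 8.20 CPM in the same inhibitor libraries. Both genes were lower in inhibitor replicates 1 and 2 than in 3 and 4, and a link between them was not tested.

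Of the remaining lists, Ebf3, a factor of Cajal-Retzius neurons, was higher by 1.69 ± 0.10 and 1.66 ± 0.27 (SE, log2) without M and without vehicle replicate 2. It was the only 1 of 7 Cajal-Retzius genes called in either fit. Their summed level was 630 to 704 CPM in C and 474 to 753 CPM in M. It was 631 to 731 CPM in WT vehicle and 508 to 768 CPM in dcKO vehicle, so the groups overlapped. The summed level of the 9 meningeal fibroblast genes was 16.1 to 75.7 CPM in C and 16 to 31 CPM in M, with none called. That of the choroid plexus list was 22.6 to 165 CPM in C and 19.8 to 31 CPM in M, also with none called. In C and WT vehicle the library of number 4 held the highest Ttr, at 120 and 114 CPM, and 1500015O10Rik was at 2.62 and 3.56 CPM there.

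The genes whose level was most like that of the list were found by the correlation of log2(CPM + 1) with the mean profile of the 10 genes over the 11 libraries labelled dcKO or lettered M, centred within each experiment. The closest were Fgfr2 (r = 0.99), Cacng5, Arhgef19, F730043M19Rik, Psat1, Pou4f1, Plpp3, 2810459M11Rik, Bdh2 and Ddit4 (r = 0.98 or more). The 11 libraries share 3 numbers between experiments and differ in Smarcc1, and over all 15212 genes the median r was 0.01, with 212 genes above 0.9. Pou4f1, a factor of sensory and habenular neurons, was at 0.158 CPM in WT and 1.82 CPM in dcKO vehicle on average. Fgfr2, a growth factor receptor, was at 46.0 and 74.1 CPM.

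Within the list the same measure set each gene against the mean of the other 9. It was 0.99 for Fbxo2, 0.98 for Cd247, 0.97 for Shox2, 0.94 for Prm1, 0.93 for Gm16565 and 0.90 for Ptx3. It was lower for Aass (0.81), Skor1 (0.76), 1500015O10Rik (0.74) and Ccdc150 (0.71). The M and dcKO vehicle libraries used here are also those in which the genes were chosen as raised. The likeness within the list is therefore not independent of that choice and is given as a description. Aass, Skor1 and Ccdc150 were also the genes of low count, and the part of counting noise in their lower values was not tested.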

How the data were processed

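RNA-seq of E17.5 pallium (19 libraries) and H3K27me3 ChIP-seq (8 libraries) were used, and H3K4me2 was not analysed here. The authors aligned reads with STAR to mm10 and deposited raw counts per gene from featureCounts. The deposited broad peaks were called by the authors with MACS2 (q 0.1) against the pooled input of each letter, with the ratio given as fold enrichment, the signal as pileup and the q-value as −log10. The strand setting of the counting is not given in the sources used here.

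Counts were fitted with edgeR 4.0.16 (quasi-likelihood, TMM, R 4.3.3), one model per experiment, after its filter on low counts, with Benjamini-Hochberg adjustment over all genes and a threshold of 0.05. DESeq2 1.42.0 was an alternative. Peaks were merged across libraries, kept when found in at least 2, and tested with limma 3.58.1 on log2 of the highest fold enrichment (1 where no peak). CPM are not divided by gene length, so levels are not compared between genes. Gene models were GENCODE M21 of GRCm38, and promoters were those of RefSeq. Scripts were tested on simulated data.

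The genes and lists were chosen with earlier results of these data known. Named are the 10 genes, Smarcc1 and Smarcc2, at most 3 called neighbours per 500 kb window, at most 4 called genes per list (or the 2 most abundant where none was called), and the 10 most similar genes. Xist, Ddx3y, Ttr, Fbxo44, the Cd3 genes and the spermatid genes at 0 were named after their values were seen. Same-numbered libraries within an experiment paired weakly or not at all. The mean correlation of deviations was -0.14 for C and M, against 0.05 for other numbers. It was 0.14 against -0.04 for WT and dcKO vehicle, and 0.09 against -0.02 for vehicle and inhibitor. For WT and inhibitor it was 0.20 against -0.07, and 1 of 4 same-numbered pairs was at -0.15. The lowest chi-square per gene between replicates was 6.88, so no pair agreed within sampling noise. Exact intervals and floors of 3 counts cover counting error only.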

Additional observations from a re-analysis of the deposited data

Results flagged for a closer look

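In groups of 4 libraries, a sample far from the other 3 was looked for in 53 groups of values, of which about 5% (2.65) are found by chance, and 5 were. All but 1 of them are from dcKO vehicle replicate 2. Prm1 was at 2.49 CPM there and at 28.1 to 30.8 CPM in the others, and Cd247 at 1.20 CPM against 4.10 to 4.31 CPM. The deleted genes stood apart in the same library, with Smarcc1 at 242 CPM against 133 to 138 CPM and Smarcc2 at 691 CPM against 425 to 439 CPM. These 4 values are not independent of each other, and the cause was not tested. The remaining one is the H3K27me3 fold enrichment at Skor1 in C replicate 1, 11.6 against 6.2 to 6.82. That library kept 13.7% of its tags.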

How the results depend on the processing

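The number of the 10 genes called lower with the inhibitor against vehicle was 0, and 0 to 1 when single libraries were left out (1 without dcKO vehicle replicate 2), and 1 without the 3 libraries. Against WT vehicle it was 0, but 3 with a replicate block, 8 with DESeq2, 1 with only the 2 groups compared, 10 without the 3 libraries and 0 to 8 with single libraries left out. Neighbours called in M against C were 0, but 3 with no filter, 7 with DESeq2 and 0 to 16 with single libraries left out. In dcKO vehicle against WT they were 0, but 2 with DESeq2, 7 without the 3 libraries and 0 to 6 with single libraries left out. List genes called were 0, but in M against C 2 with no filter, 6 with DESeq2 and 0 to 20 with single libraries left out, in dcKO vehicle against WT 3, 12 and 0 to 7 (DESeq2, without the 3 libraries, single libraries), and with the inhibitor against vehicle 1 with no filter, 11 with DESeq2, 3 without the 3 libraries and 0 to 4 with single libraries left out. The highest counts came without M replicate 2, vehicle replicate 2 or inhibitor replicate 2.

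The log2 fold change of Ccdc150 with the inhibitor against vehicle turned from -0.06 to 0.14 without the 3 libraries and ran from -0.22 to 0.18 with single libraries left out. That of Ptx3 turned from -0.23 to 0.23 and ran from -0.66 to 0.042, with the sign turned without inhibitor replicate 1. The H3K27me3 difference at Skor1 turned from 0.09 to -0.13 with pileup and ran from -0.11 to 0.29. The cause of these changes was not tested. The H3K27me3 regions of the genes gave 0 calls under all alternatives run. Over all genes, M against C gave 1 call with edgeR, 257 higher and 298 lower with DESeq2, 88 and 66 with no filter, 892 and 1102 without M replicate 2, and 0 with the replicate block. Levels of the 10 genes moved by -0.34% to 1.98% under other scalings. For vehicle against WT DESeq2 gave 85 and 35, for inhibitor against vehicle 174 and 165 (edgeR 7 and 2), and for inhibitor against WT 329 and 441 (edgeR 10 and 6). The replicate block changed no other call of the 10 genes. Depth limits Ccdc150, Skor1 and the controls of Prm1 and Shox2, which rest on a few reads per library.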
